A study of Mus musculus with 11 samples.

Results

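The nuclear genes of the mitochondrial respiratory chain were examined in ZsGreen-marked stromal areas of mammary glands from naive mice. Members were the targets whose names match the gene symbols of complexes I to V (Nduf, Sdh, Uqcr, Cox4 to Cox8 and Atp5 names), and 86 of 19965 endogenous targets did, each with 1 probe. They comprise 37 targets counted here under complex I, 4 under complex II, 8 under complex III, 20 under complex IV and 17 under complex V. Ndufa4, named for complex I, is a subunit of complex IV and was counted there with its paralog Ndufa4l2. The tissue came from 3 untreated periostin lineage tracing mice, in which the fluorescent protein ZsGreen marks periostin-lineage cells. Strain, sex and age are not given in the sources used here. Within regions picked by staining, the ZsGreen-positive area was collected from paraformaldehyde-fixed frozen sections on the GeoMx platform, which counts barcoded probes released by light. The 6 Pdpn-adjacent regions (2, 3, 4, 7, 8 and 11) lay near lymphatic vessels stained for podoplanin, and the 5 SMA-adjacent regions (1, 5, 6, 9 and 10) near ducts or blood vessels stained for smooth muscle actin. The labels do not tie regions to mice, and each group has more regions than there were mice. Some regions therefore share a mouse, and p-values over regions are too small.

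The respiratory chain passes electrons from NADH (complex I) and succinate (complex II) through complexes III and IV to oxygen, and complex V uses the resulting proton gradient to make ATP. Most subunits are nuclear genes used in nearly every cell, and cells rich in mitochondria, such as muscle and brown fat, hold more of them. Complex IV has tissue forms of some subunits. Cox6a2, Cox7a1 and Cox8b are the forms of heart and skeletal muscle, and Cox7a1 and Cox8b are also made in brown fat, whereas Cox6a1, Cox7a2 and Cox8a are the general forms.

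Total counts ran from 22757 to 3086323 per region, and regions 2, 3 and 11 held only 22757, 81760 and 30316. Levels are given as the count divided by the geometric mean of 210 negative-control probes of the same region (times background). The lowest value in the table is 1, which 74 of the 86 members showed in region 2 and 25 in region 11, so a level near 1 in these regions rests on 1 or 2 counts. Markers of several cell types were counted in the collected areas, and which cells they came from was not tested. Summed over its 11 white adipocyte markers, a region reached 15.2 to 569 times background in Pdpn-adjacent and 197 to 626 in SMA-adjacent regions, and the 10 fibroblast markers reached 9.52 to 88.4 and 53.4 to 159. The 8 smooth muscle markers summed to 9.52 to 29.0 and 36.0 to 204, all Pdpn-adjacent regions lying below all SMA-adjacent ones.

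Of the 86 members, 74 had a median level over 2 times background (86.0%), a level that 15.0% of all 19935 probes tested reached. The background floor lies 2 SDs over the mean log2 count of a region's negative probes. Most members stood above it in regions 9 and 10, 79 of 86 in each, as did 19.1% and 19.2% of all probes there. In region 5, which had the highest total count, 60 members and 8.79% of all probes did. In region 1, 46 members and 12.2% of all probes did, in region 3, 28 and 2.77%, and in region 2, 12 and 10.0%. In the shallow region 11, 61 members and 22.4% of all probes did, since 2 counts pass the floor there. The 12 members at or below 2 times background were the tissue forms Cox6a2, Cox4i2, Cox6b2, Cox7b2 and Cox8c, the paralogs Ndufa4l2 and Ndufb11b, and the general subunits Ndufb2, Ndufs4, Ndufv1, Uqcrc1 and Cox7c. Probes differ in efficiency and each target has 1, so a level compares regions for the same probe and not amounts of different transcripts.

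Averaged over the 76 general subunits (geometric mean), the mean stood at 1.05 in region 2, 2.12 in region 11, 3.02 in region 3, 3.76 in region 8, 4.43 in region 4 and 5.12 in region 7. Among SMA-adjacent regions it was 2.92 in region 1, 3.31 in region 5, 5.56 in region 6, 5.81 in region 10 and 6.04 in region 9. Regions 1 and 5 were thus lower than 3 of the Pdpn-adjacent regions, and the groups overlapped. In such bulk areas, fewer cells of a type and less RNA per cell cannot be told apart. White adipocyte markers also varied between SMA-adjacent regions, and summed to 304, 197, 391, 552 and 626 times background in regions 1, 5, 6, 9 and 10. Their part in the subunit levels was not tested.

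**Figure D1:**
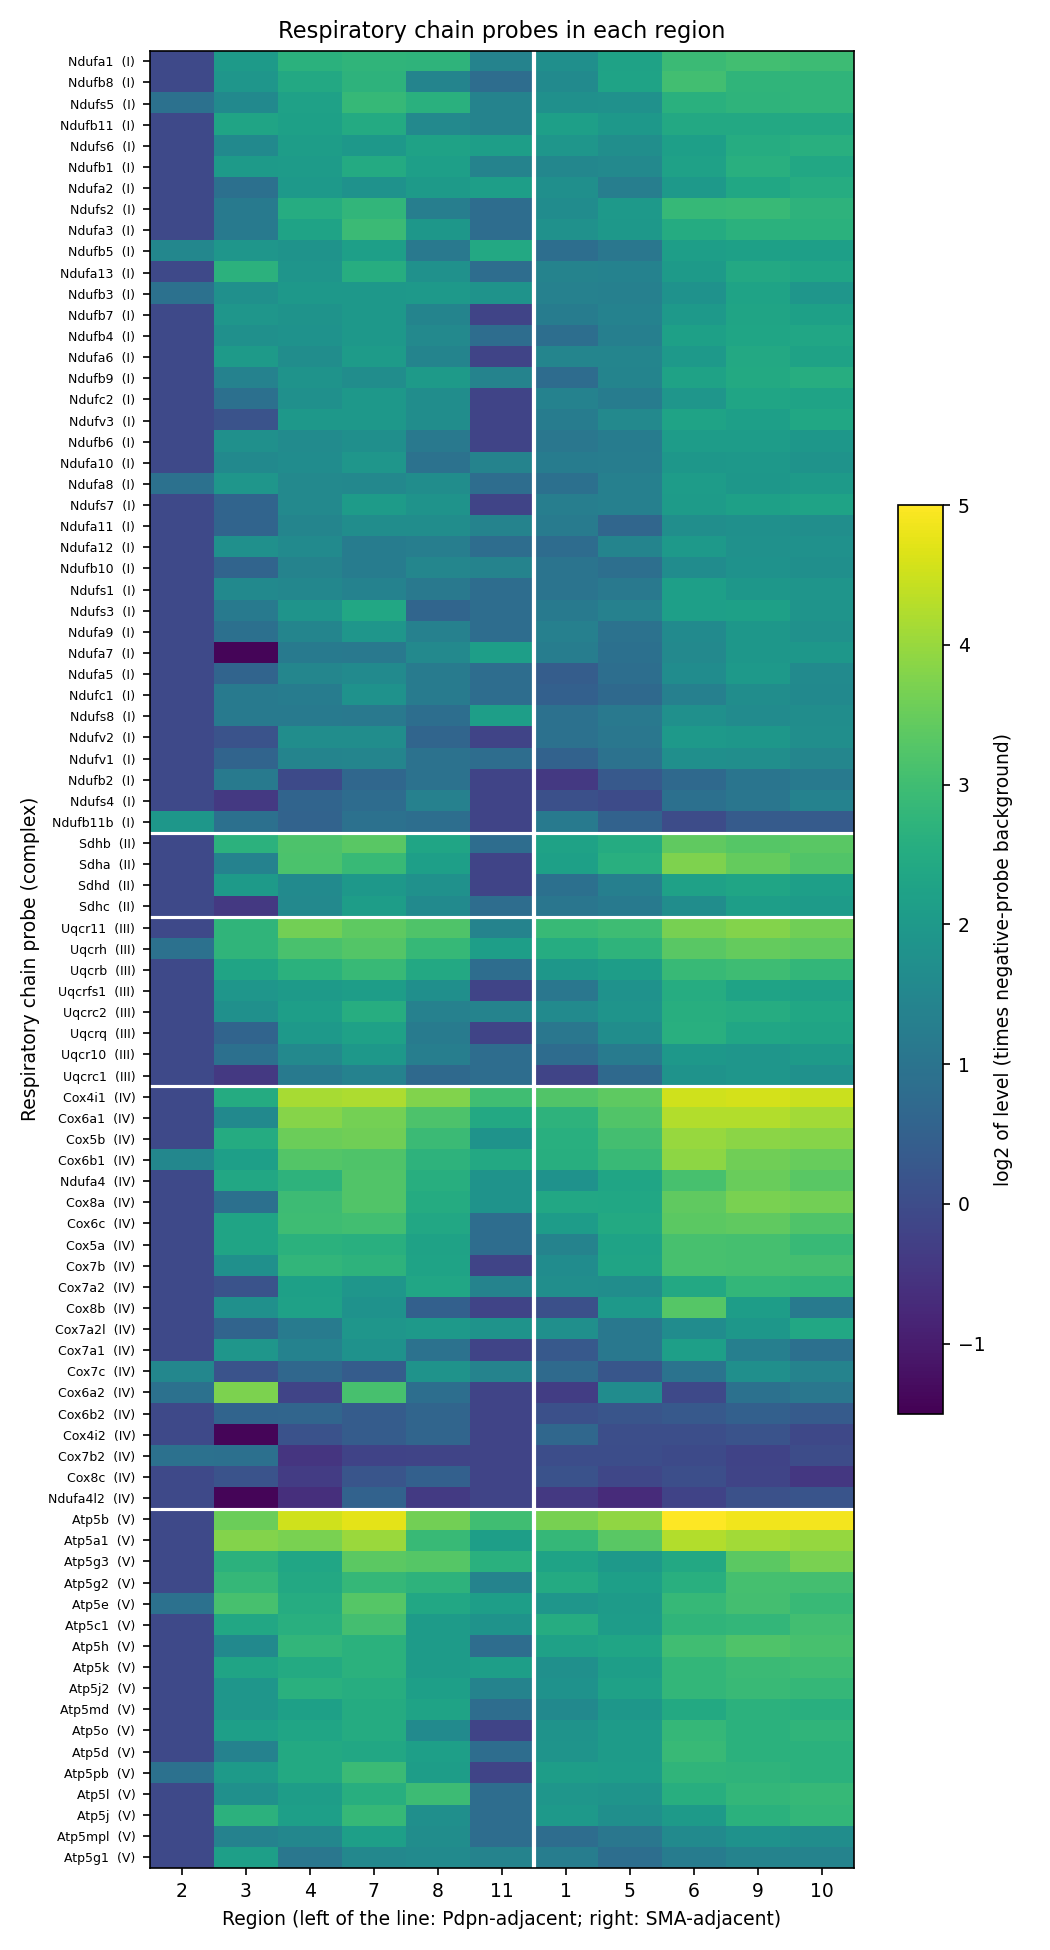
Level of each of the 86 respiratory chain probes (rows, by complex and then by median) in each of the 11 regions (columns), as log2 of the count over the negative-probe geometric mean. In region 2, 12 of 86 members exceed the background floor, and Cox6a2 is highest in regions 3 and 7 (13.1 and 8.59 times background).

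No member differed between the groups past the threshold. With edgeR's quasi-likelihood test, adjusted over all 19935 probes, 0 of 86 members were higher in Pdpn-adjacent regions (0.01% of all probes were) and 0 were lower (0.0% of all probes were). At an unadjusted p under 0.05 there were 0 members, against 6.03% of all probes, and DESeq2 and limma-voom also called 0. The log2 fold change (Pdpn-adjacent minus SMA-adjacent) was below 0 for 73 of 86 members, or 84.9%, against 48.8% of all probes. The members' median was -0.21 and that of all probes tested 0.01. Only 15.0% of all probes had a median over 2 times background, against 86.0% of members, and probes of like level were not compared. Among other lists, 10 of 11 white adipocyte, 10 of 10 fibroblast and 17 of 17 citric acid cycle genes were also below 0. So were 8 of 8 smooth muscle, 6 of 6 macrophage and 5 of 6 blood endothelium genes. Of brown adipocyte genes 5 of 10 were, but only 1 of 19 skeletal muscle and 0 of 8 luminal epithelium genes. No member had all Pdpn-adjacent regions below all SMA-adjacent ones in library-scaled counts, as 0.391% of probes did, and none had them all above, as 0.446% did. Without the shallow regions 2, 3 and 11 the median was -0.11, with 63 of 86 members below 0, and without region 1 or region 7 it was -0.32. The limma-voom fit, whose median over all probes was 0.14, placed 47 of 86 members below 0. The sharing of mice between regions makes the p-values here too small.

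**Figure D2:**
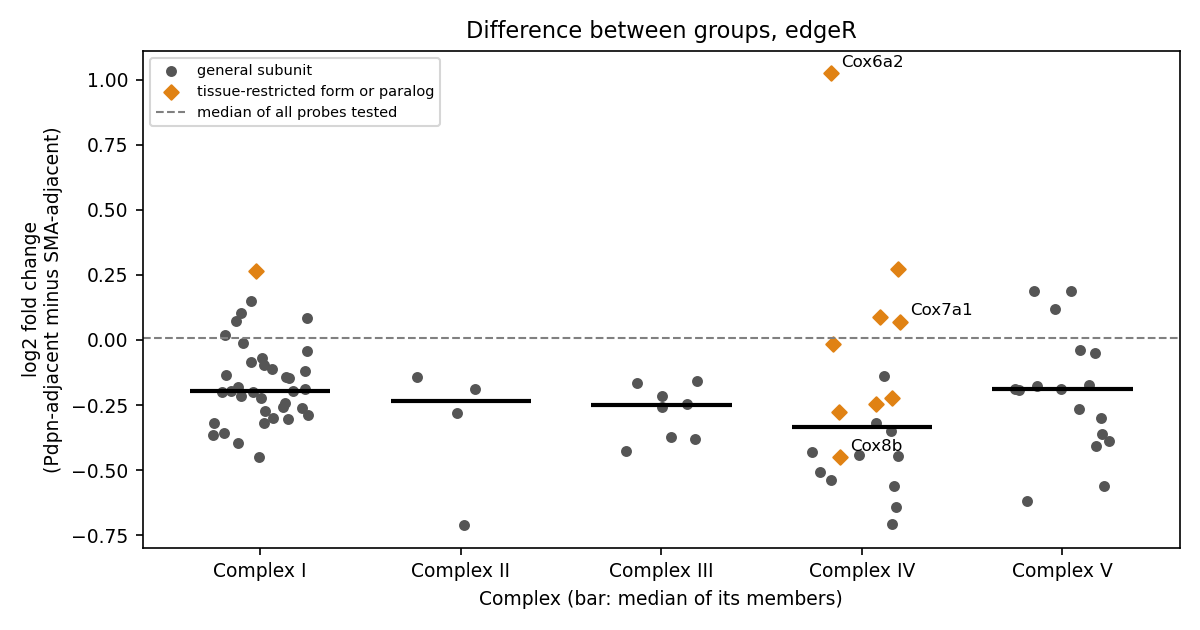
Log2 fold change (Pdpn-adjacent minus SMA-adjacent, edgeR) of each member by complex, with the median of the complex as a bar and the median of all probes tested as a dashed line. Complex medians lie between -0.33 and -0.19, and Cox6a2 stands highest at 1.02.

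Complex I, which takes electrons from NADH, had 31 of 37 members below 0 and a median log2 fold change of -0.20. Its 36 general subunits averaged 1.04 to 3.74 times background in Pdpn-adjacent regions (median 2.61) and 2.23 to 4.44 in SMA-adjacent regions (median 4.05). Ndufa1, a small subunit of the membrane arm, had the highest median level of the complex. It stood at 0.952, 4.13, 6.26, 6.70, 6.64 and 2.67 times background in regions 2, 3, 4, 7, 8 and 11 and at 3.32, 4.78, 7.65, 8.25 and 7.81 in regions 1, 5, 6, 9 and 10. The groups overlapped for Ndufa1, and the log2 fold change, with its SE, was -0.22 ± 0.33 (adjusted p = 1.00, edgeR). Ndufb8, another membrane arm subunit, had a median of 3.22 (range 0.952 to 6.55) against 6.68 (3.05 to 8.23) times background and a log2 fold change of -0.45 ± 0.34 (edgeR adjusted p = 0.955). The smallest p-values in the complex belonged to the accessory subunits Ndufb2 (-0.36 ± 0.24) and Ndufa7 (-0.37 ± 0.25), with edgeR adjusted p-values of 0.931 and 0.935. Ndufb2 exceeded the background floor in only 2 regions and was higher, not lower, in Pdpn-adjacent regions with limma-voom (0.49). These p-values are too small, as some regions share a mouse.

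Complex II, the succinate dehydrogenase that is also an enzyme of the citric acid cycle, had 4 of 4 members below 0. Sdha, the flavoprotein that oxidises succinate, stood at 0.952, 2.63, 8.94, 7.42, 4.47 and 0.889 times background in regions 2, 3, 4, 7, 8 and 11. In regions 1, 5, 6, 9 and 10 it stood at 4.60, 6.05, 13.3, 10.9 and 9.44. In library-scaled counts 4 of 6 Pdpn-adjacent regions lay below every SMA-adjacent one, and Sdha had the lowest fold change of all members, -0.71 ± 0.41 (edgeR adjusted p = 0.921, exact two-sided permutation p = 0.0649). Sdhb, the iron-sulphur subunit, reached 0.952 to 10.2 against 4.78 to 10.7 times background, with -0.28 ± 0.39 (edgeR adjusted p = 1.00). Sdhc and Sdhd, the membrane anchors, had medians of 2.93 and 3.45 times background over the 11 regions. With regions that share a mouse, these p-values are too small.

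Complex III, which passes electrons from ubiquinol to cytochrome c, had 8 of 8 members below 0 (median log2 fold change -0.25). Uqcr11 and Uqcrh, small accessory subunits, had the highest levels. Uqcr11 stood at 0.952, 6.75, 12.3, 10.5, 9.33 and 2.67 times background in regions 2, 3, 4, 7, 8 and 11 and at 7.34, 7.95, 12.8, 13.9 and 12.1 in regions 1, 5, 6, 9 and 10, so that the deep regions of both groups overlapped widely. Its log2 fold change was -0.37 ± 0.42 and that of Uqcrh -0.25 ± 0.36 (edgeR adjusted p = 1.00 for both). Uqcrh exceeded the background floor in all 11 regions, in region 2 with only 2 counts. Uqcrq (-0.42 ± 0.31) and the core subunit Uqcrc1 (-0.38 ± 0.30) had the smallest p-values, adjusted by edgeR to 0.952 and 0.973, and Uqcrc1 had a limma-voom fold change of 0.07. Because regions share mice, these p-values are too small.

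Complex V, the ATP synthase, had 14 of 17 members below 0 (median log2 fold change -0.19), and all 17 had a median over 2 times background. Atp5b, the catalytic beta subunit, stood at 0.952, 11.6, 23.2, 26.8, 12.3 and 8.00 times background in regions 2, 3, 4, 7, 8 and 11 and at 12.6, 15.2, 32.0, 29.1 and 29.5 in regions 1, 5, 6, 9 and 10. Regions 4 and 7 lay between the 2 lower and the 3 higher SMA-adjacent regions. The log2 fold change of Atp5b was -0.62 ± 0.62 and that of Atp5a1, the alpha subunit, -0.39 ± 0.49 (edgeR adjusted p = 1.00 for both). Atp5h and Atp5o, subunits of the peripheral stalk, had the smallest p-values, with -0.56 ± 0.34 and -0.41 ± 0.31 (edgeR adjusted p = 0.927 and 0.957). The 3 members above 0 were Atp5e, Atp5g1 and Atp5mpl, at 0.12 to 0.19. Regions that share a mouse make these p-values too small.

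**Figure D3:**
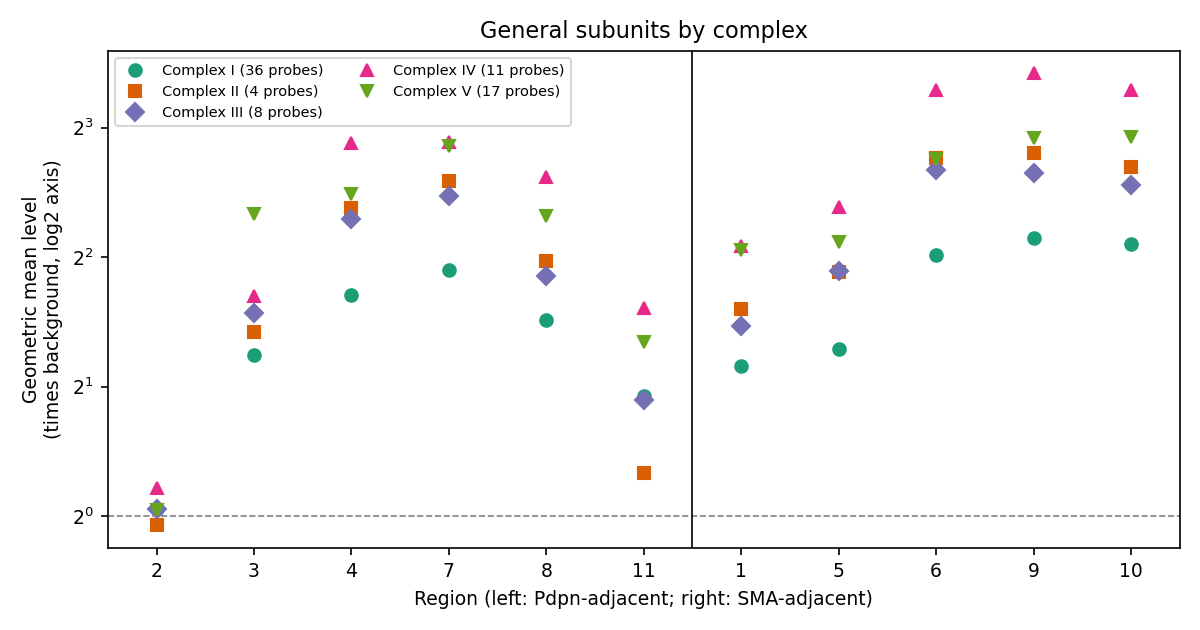
Geometric mean level of the general subunits of each complex in each region, in times background on a log2 axis, with the dashed line at background. All 5 complexes are at 0.952 to 1.16 times background in region 2, and complex I ranges from 1.04 to 4.44 over the regions.

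The general subunits varied together across regions. Over the 8 regions with more than 100000 counts, the Spearman correlation of a general subunit's log2 library-scaled count with the median of the other general subunits had a median of 0.83 (range 0.36 to 0.98), and it exceeded 0.5 for 73 of 76. The points share libraries and depth, and other probes of like level were not compared, so this is a description only. The lowest values belonged to Cox7c and Atp5g1 (0.36 each) and Ndufs4 (0.43). The Cox7c probe is among 5 member probes without a single genomic position in the file, whose counts cannot be assigned to 1 locus. The other general ones, Ndufb1, Ndufb4 and Ndufs5, had 0.76, 0.93 and 0.86. Cox8b (0.33), Cox4i2 (-0.40) and the testis forms Cox7b2 (-0.14) and Cox8c (-0.05) had low or negative correlations, the latter 3 at medians of 0.952 to 1.04 times background. The paralog Ndufb11b had -0.33, and Cox6a2, Cox7a1 and Cox7a2l had 0.62, 0.67 and 0.67. Ndufa4l2 (0.83) and Cox6b2 (0.45) exceeded the background floor in 0 regions. A correlation as high as the general subunits' median was thus also reached by a probe at background.

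Complex IV, cytochrome c oxidase, had 16 of 20 members below 0. Its 11 general subunits had a median log2 fold change of -0.45. Cox4i1, the largest nuclear subunit, stood at 0.952, 5.63, 17.7, 18.3, 13.7 and 8.00 times background in regions 2, 3, 4, 7, 8 and 11 and at 9.37, 10.5, 23.1, 23.8 and 22.3 in regions 1, 5, 6, 9 and 10 (log2 fold change -0.56 ± 0.54, edgeR adjusted p = 0.999). Its lung form Cox4i2 exceeded the background floor in 0 regions, as did the testis forms Cox6b2 and Cox8c. Cox6b2 had a log2 fold change of 0.27 ± 0.14 (edgeR adjusted p = 0.860), at levels of 0.889 to 1.53 times background. Cox4i2 had 0.09 ± 0.16 (edgeR adjusted p = 1.00). The p-values given are too small, mice being shared.

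The stretches around the transcription starts of 5 of the 6 complex IV forms compared next are shown (no window was found for Cox6a2) so that their base composition and known promoter motifs can be seen. Windows of 300 bases (250 before to 50 after the start, RefSeq, GRCm38.p6) were found for 70 of 86 members, 75 windows in all. They are given 5′ to 3′ on the gene's strand, with matches to the motifs in capitals. Cox8b lies at chr7:140900397-140900696 (- strand), Cox8a at chr19:7217567-7217866 (- strand), Cox7a1 at chr7:30183921-30184220 (+ strand), Cox7a2 at chr9:79759804-79760103 (- strand) and Cox6a1 at chr5:115348909-115349208 (- strand).
Cox8b: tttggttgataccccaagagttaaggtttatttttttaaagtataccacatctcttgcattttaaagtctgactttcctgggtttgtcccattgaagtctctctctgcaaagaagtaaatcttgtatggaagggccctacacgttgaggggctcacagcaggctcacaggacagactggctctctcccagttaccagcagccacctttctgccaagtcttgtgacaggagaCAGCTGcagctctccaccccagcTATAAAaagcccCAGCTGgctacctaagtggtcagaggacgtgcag
Cox8a: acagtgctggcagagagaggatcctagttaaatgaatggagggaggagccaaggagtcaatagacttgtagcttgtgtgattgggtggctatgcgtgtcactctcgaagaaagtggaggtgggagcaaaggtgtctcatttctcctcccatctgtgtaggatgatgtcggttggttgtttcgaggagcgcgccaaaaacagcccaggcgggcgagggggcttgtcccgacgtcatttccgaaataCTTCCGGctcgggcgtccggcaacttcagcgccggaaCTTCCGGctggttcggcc
Cox7a1: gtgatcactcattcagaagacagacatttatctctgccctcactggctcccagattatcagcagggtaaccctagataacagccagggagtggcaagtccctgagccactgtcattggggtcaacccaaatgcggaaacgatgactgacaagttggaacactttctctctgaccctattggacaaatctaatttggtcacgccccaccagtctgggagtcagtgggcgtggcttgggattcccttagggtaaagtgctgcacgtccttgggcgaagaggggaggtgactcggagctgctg
Cox7a2: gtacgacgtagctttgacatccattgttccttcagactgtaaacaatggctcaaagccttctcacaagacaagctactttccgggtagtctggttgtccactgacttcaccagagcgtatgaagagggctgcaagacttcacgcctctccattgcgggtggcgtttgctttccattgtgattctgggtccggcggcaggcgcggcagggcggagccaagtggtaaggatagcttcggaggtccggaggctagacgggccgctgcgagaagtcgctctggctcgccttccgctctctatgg
Cox6a1: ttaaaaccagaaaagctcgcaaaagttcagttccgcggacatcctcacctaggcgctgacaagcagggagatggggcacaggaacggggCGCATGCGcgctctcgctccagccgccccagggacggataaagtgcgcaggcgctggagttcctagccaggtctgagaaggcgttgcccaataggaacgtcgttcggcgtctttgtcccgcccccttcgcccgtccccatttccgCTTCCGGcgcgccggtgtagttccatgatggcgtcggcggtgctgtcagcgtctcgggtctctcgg

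Both strands were searched for the core GCATGCG of the NRF1 motif, the ETS motif CCGGAAG, the E-box CAGCTG bound by muscle regulators, the TATA motif TATAAA and the ERR motif AAGGTCA. The NRF1 core overlaps its own reverse complement, so a single site in the Cox6a1 window matched on both strands. The Cox8b window held TATAAA and CAGCTG, the Cox8a window CCGGAAG, and the Cox6a1 window GCATGCG and CCGGAAG, while none of the 5 patterns occurred in those of Cox7a1 and Cox7a2. Over the 69 windows of general subunits, 24.6% held CCGGAAG, 15.9% GCATGCG, 10.1% AAGGTCA, 7.25% CAGCTG and 10.1% TATAAA. Over all 32851 windows the shares were 8.86%, 3.58%, 4.72%, 16.3% and 13.6% in the same order. A match describes letters and is not evidence of binding.

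The 3 muscle and heart forms did not all share a pattern across regions. Cox7a1 and Cox8b were both highest in region 6, and Cox6a2 was highest in region 3. Cox6a2 stood at 13.1 times background in region 3 and 8.59 in region 7, at 3.18 in region 5, 2.11 in region 10, 1.90 in regions 2 and 9 and 1.79 in region 8, and at 0.796 to 0.949 in regions 1, 4, 6 and 11. Cox8b was highest in region 6, at 9.78 times background, followed by 4.67 in region 4, 4.38 in region 9, 4.07 in region 5, 3.49 in region 7 and 3.38 in region 3. It stood at 2.21 in region 10, 1.41 in region 8, 1.06 in region 1, 0.952 in region 2 and 0.889 in region 11. The 9 counts of Cox8b in region 3 did not exceed the background floor. Thus region 6, with the highest Cox8b, had background Cox6a2. Cox7a1 stood at 4.53 in region 6 and 3.49 in region 7, at 3.75 in region 3, where its 10 counts did not exceed the floor, and at 1.24 to 2.61 in regions 1, 4, 5, 8, 9 and 10. Over the 11 regions Cox6a2, Cox7a1 and Cox8b exceeded the floor in 5, 4 and 6. For Cox6a2 these include region 2, where it had 2 counts.

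The general forms Cox6a1, Cox7a2 and Cox8a did not exceed the floor in regions 2 and 3 and exceeded it in the other 9. In region 3 they stood at 3.00, 1.13 and 1.88 times background, from 8, 3 and 5 counts, against 12.5, 3.78 and 9.46 in region 7 and 19.2, 5.40 and 10.7 in region 6. The probes of Cox6a2, Cox7a1 and Cox8b lie on chromosome 7 of GRCm38.p6, at 128205733 to 128205769, 30185085 to 30185126 and 140899017 to 140899052, each inside the RefSeq span of its gene.

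**Figure D4:**
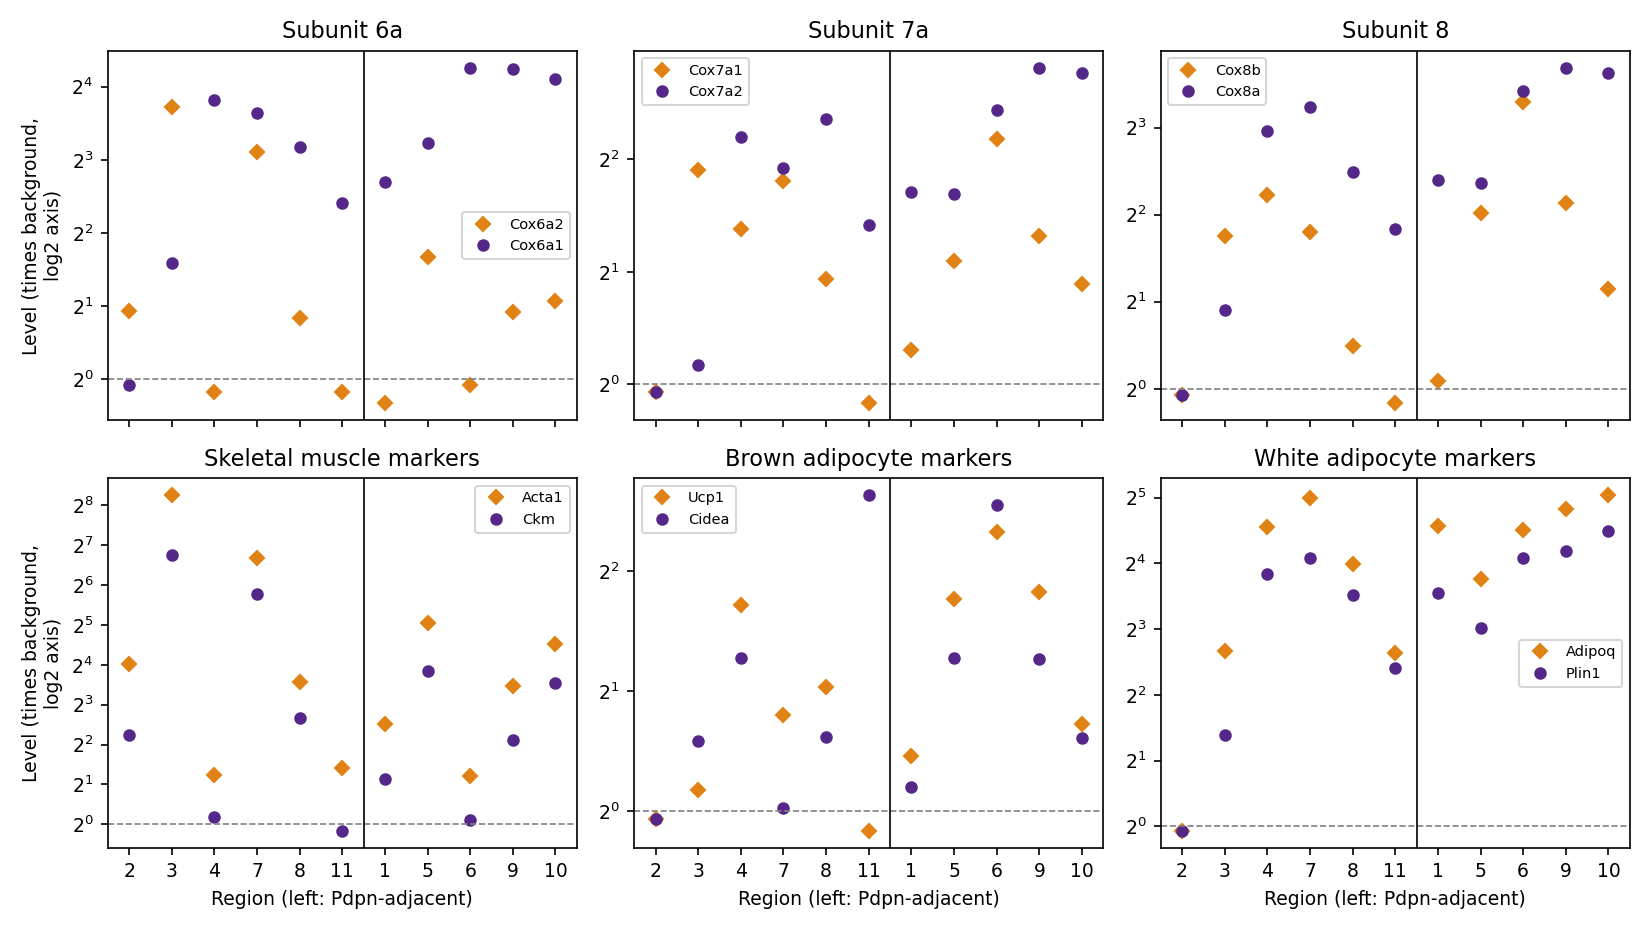
Levels in times background (log2 axes, dashed line at background) of the muscle and heart forms with their general forms (upper row) and of skeletal muscle, brown adipocyte and white adipocyte markers (lower row) in each region. Cox6a2, Acta1 and Ckm peak in regions 3 and 7, and Cox8b and Ucp1 peak in region 6.

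Skeletal muscle and brown adipocyte markers were set beside these forms. The 19 skeletal muscle markers summed to 956 times background in region 3 and 452 in region 7, to 20.0 to 69.5 in the other Pdpn-adjacent regions and to 20.1 to 139 in SMA-adjacent regions, with the lowest sums in regions 4 and 6. Acta1, skeletal muscle actin, reached 306 and 102 times background in regions 3 and 7 and 2.30 in region 6. Myh7, the slow myosin heavy chain, was at or below background in every region (0.375 to 0.952). Slc25a4, the ADP/ATP carrier form of muscle and heart, reached 22.5 and 12.95 times background in regions 3 and 7, against 0.889 to 8.69 elsewhere, and the general form Slc25a5 was at 2.25 and 7.28 in them and 0.889 to 7.75 elsewhere. Among the 10 brown adipocyte markers measured, which summed to 9.52 to 19.6 and 12.4 to 22.6 times background, Ucp1, the uncoupling protein of brown fat, was highest in region 6 (5.02), followed by regions 9 (3.54), 5 (3.41) and 4 (3.30). Cidea, a lipid droplet protein of brown fat, was at 5.90 in region 6 and 6.23 in the shallow region 11, while Dio2, Ppargc1a, Zic1, Prdm16 and Kcnk3 exceeded the background floor in 0 regions. The part of these cell types in the levels of the subunits was not tested.

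The genes with the most similar pattern over the 11 regions, among 983 probes that reached 5 times background in some region, differed for the 3 forms. For Cox6a2 they were Tcap, Pvalb, Myh4 and Ttn (Spearman's rho 0.95 to 0.96), genes of muscle contraction and the sarcomere, with 5 probes tied for the next place (0.94). For Cox8b they were Pdk4, a kinase that inhibits pyruvate dehydrogenase (0.91), and the citric acid cycle genes Idh3g, Suclg1 and Idh3b (0.86 to 0.87), with 3 probes tied next (0.85). For Cox7a1 they were the citric acid cycle gene Mdh2 (0.94) and the general subunits Atp5a1, Uqcrfs1 and Ndufb11 (0.85 to 0.87), with 2 tied next. These rankings describe 11 libraries of unequal depth. Cox6a2, Cox7a1 and Cox8b exceeded the background floor in 5, 4 and 6 regions, so many of the ranks order counts near background. Tcap and Ttn passed 5 times background only in region 3 (9.38 and 10.9), where Cox6a2 was also highest.

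The log2 ratio of a form's probe count to that of its general form needs no library scaling. Background was not subtracted and the probes of a pair differ in efficiency, so it compares regions and not amounts of the forms. Where a probe is at or below the background floor, it does not compare isoforms at all. Both probes exceeded the floor in 3 of 11 regions for Cox6a2 and Cox6a1, in 4 for Cox7a1 and Cox7a2 and in 6 for Cox8b and Cox8a. In region 10 Cox6a2 had 83 counts against a floor of 82.5. For Cox6a2 to Cox6a1 the ratio was -0.54 in Pdpn-adjacent region 7 and -1.56 and -3.03 in SMA-adjacent regions 5 and 10. For Cox7a1 to Cox7a2 it was -0.81 and -0.12 in Pdpn-adjacent regions 4 and 7 and -0.25 and -1.497 in SMA-adjacent regions 6 and 9. For Cox8b to Cox8a it was -0.74 and -1.44 in regions 4 and 7 and -0.34, -0.13, -1.56 and -2.48 in regions 5, 6, 9 and 10. The general form gave the higher count in each of these. Requiring both probes over the floor leaves out region 3, where the general forms did not exceed it. There the ratios were 2.13, 1.74 and 0.85 for the 3 pairs, and of the muscle and heart forms only Cox6a2 exceeded the floor. Among the other regions left out, the ratios in region 2 were 1, 0 and 0, from 1 or 2 counts. Elsewhere they were below 0. Over all 11 regions, the difference in mean ratio (Pdpn-adjacent minus SMA-adjacent) was 2.00, 0.76 and 0.48 for the 3 pairs (exact two-sided permutation p = 0.115, 0.253 and 0.491, adjusted p = 0.344, 0.380 and 0.491 over 3 pairs). Most ratios in that test have a probe at background, among them those of regions 2, 3 and 11 for every pair, so it does not compare isoform use between the groups. The p-values are also too small, as some regions share a mouse.

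**Figure D5:**
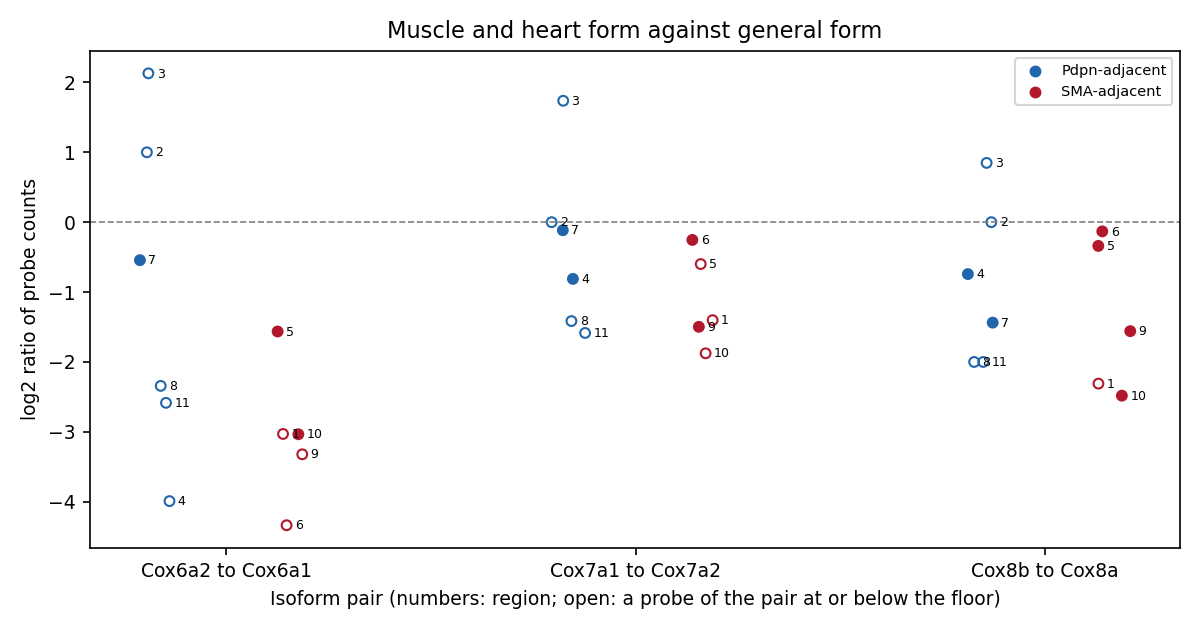
Log2 ratio of probe counts of each muscle and heart form to its general form in each region (numbered points, coloured by group), with open points where either probe was at or below the background floor. Filled points, where both exceeded it, number 3, 4 and 6 for the 3 pairs and all lie below 0. The open points of region 3 lie at 2.13, 1.74 and 0.85.

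Between the groups, Cox6a2 had the highest fold change of all members without passing. It averaged 149 ± 167 CPM (counts scaled to a common library size; SD) over the 6 Pdpn-adjacent regions and 56.1 ± 33.5 CPM (SD) over the 5 SMA-adjacent ones, and 2 of 6 Pdpn-adjacent regions (3 and 7) lay above every SMA-adjacent one. The fold change on the log2 scale was 1.02 ± 0.52 (adjusted p = 0.853 with edgeR, exact permutation p = 0.335). It was 0.40 without region 3, 0.20 without region 7 and -0.84 ± 0.42 without both (edgeR adjusted p = 0.845). It rose to 1.67 without region 4. Without regions 4 and 8 it was 2.15 ± 0.42 and was called (edgeR adjusted p = 0.0495). In these Pdpn-adjacent regions Cox6a2 stood at 0.887 and 1.79 times background. Leaving them out raises the difference, so the call depends on that choice of regions. The share of all probes called without them is not given here. Cox7a1 had 0.07 ± 0.29 (edgeR adjusted p = 1.00) and Cox8b -0.45 ± 0.43 (edgeR adjusted p = 0.996), which became 0.11 without region 6. The general forms Cox6a1, Cox7a2 and Cox8a had -0.71 ± 0.50, -0.44 ± 0.30 and -0.64 ± 0.41 (edgeR adjusted p = 0.946, 0.936 and 0.927). These p-values are too small, because some regions share a mouse.

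Genes that work with the chain were counted from lists chosen for function. None of the 17 citric acid cycle and pyruvate dehydrogenase genes passed the threshold in either direction. All 17 had a fold change below 0 (median -0.31), and 15 had a median over 2 times background. Their geometric mean level ran from 1.03 in region 2 to 4.54, 5.15 and 5.71 in regions 10, 9 and 6. Mdh2, malate dehydrogenase, exceeded the background floor in all 11 regions, at only 1.90 times background in the shallow region 2. Of 48 assembly factors, which build the complexes without belonging to them, 0 passed, 22 were below 0 (median 0.03) and 9 had a median over 2 times background (18.8%, against 15.0% of all probes). Of 20 regulators of mitochondrial gene expression 0 passed (median 0.02), and Ppargc1a, a coactivator of mitochondrial biogenesis, and Tfam, the mitochondrial transcription factor, had medians of 1.04 and 1.43 times background. Of 18 carriers and subunits named otherwise, 0 passed and 10 were below 0 (median -0.06). Among them Cycs, the electron carrier cytochrome c, had a log2 fold change of -0.20, and Cyc1, the cytochrome c1 subunit of complex III, -0.52 (edgeR adjusted p = 1.00 and 0.921). The p-values are too small, as some regions share a mouse.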

How the data were processed

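Transcripts of 11 regions were measured with mouse whole-transcriptome probes. The values are raw counts per probe and region as deposited by the authors, without normalization, judged from the values. The table places its probes on GRCm38.p6. The sources used here do not give how reads became counts or whether the lowest value of 1 replaces zeros. Members and lists were chosen with earlier results of these data known.

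Probes kept by filterByExpr (19935, all 86 members among them) were fitted with edgeR 4.0.16 in R 4.3.3 (TMM factors, quasi-likelihood test, two-sided, Benjamini-Hochberg over all probes, threshold 0.05). The standard error is the one implied by p. Ratios were tested by exact permutation over regions. CPM are TMM-scaled, and log2 CPM used a prior count of 2. The fit was tested on simulated data. The named members are the isoform pairs and, for each complex, the 2 of highest median level and the 2 of smallest p. Alternatives changed the filter, scaling or tool (DESeq2 1.42.0, limma 3.58.1) or left out regions. No block for mice could be fitted. Total counts of 22757 to 3086323 limit the precision of regions 2, 3 and 11 most, and counting error is only part of the error.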

Additional observations from a re-analysis of the deposited data

Results flagged for a closer look

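A sample standing far from the others of its group was found for 2 of 52 groups of values examined, where chance gives about 1 in 20. Atp5b had a log2 CPM of 5.29 in Pdpn-adjacent region 2, the lowest of its group, where the raw count was 1 and the total count 22757. Cox4i2 had a log2 CPM of 3.81 in Pdpn-adjacent region 3, the lowest of its group, also from a raw count of 1.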

How the results depend on the processing

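The counts of members called were 0 higher and 0 lower in every alternative except without regions 4 and 8, Pdpn-adjacent regions with low Cox6a2. There 1 member, Cox6a2 (2.15), was called higher. The share of all probes called in that fit is not given here, so this count cannot be set beside it. Without single regions the counts stayed at 0 and 0, and the members' median log2 fold change ran from -0.32 to -0.15. It was -0.33 without regions 3 and 7, -0.22 without regions 4 and 8, -0.11 without regions 2, 3 and 11, -0.27 with negative-probe scaling and -0.05 with limma-voom, which moved the median of all probes to 0.14 (-0.18 relative to it). The sign turned for Cox6a2 (-0.84) and Cox7a1 (-0.14) without regions 3 and 7, for Cox4i2 (-0.018) and Ndufb2 (0.092) without regions 4 and 8, for Ndufa1 (0.0061) and the Cox8b to Cox8a ratio (-0.029) without regions 2, 3 and 11, and for Ndufa1 (0.078), Ndufb2 (0.49) and Uqcrc1 (0.070) with limma-voom. Leaving out single regions, Cox7a1 ran from -0.070 to 0.42 (below 0 without region 1, 7 or 10), Cox8b from -0.92 to 0.11 (above 0 without region 6) and Ndufb2 from -0.46 to 0.044 (above 0 without region 4). The cause was not tested. The differences in log2 ratio then ran from 1.36 to 2.59 for Cox6a2, 0.34 to 1.00 for Cox7a1 and 0.13 to 0.78 for Cox8b. No paired analysis was possible because the labels name no mouse per region.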
